A study of Mus musculus with 4 samples.

Results

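The 10 genes described here, Epcam, Cdh1, Mal2, Myh14, Krt8, Krt18, Krt7, Cd24a, Elf3 and St14, are commonly read as genes of epithelial cells in general. They were looked up by symbol in a table of 24421 gene rows, and all 10 were found. The RNA came from lymphatic endothelial cells, the lining of lymphatic vessels, isolated from lungs of mice on postnatal day 0 by sorting cells without the leukocyte protein CD45 but with the endothelial protein CD31 and with GFP. Jun-Ctrl animals were Prox1-CreER;Junf/+;Rosa26-mTmG and Jun-cKO animals Prox1-CreER;Junf/f;Rosa26-mTmG, so both groups carried a Cre recombinase driven by Prox1, a reporter that turns green where Cre has acted, and at least 1 floxed Jun allele. Each group has 2 libraries, called its pair here (n = 2 throughout), and lungs of 3 to 5 mice were pooled per group. Per the series' design text the cells were mixed within each group ahead of RNA amplification, so the spread between the libraries of a group may be technical. If so, the standard errors and adjusted p given below do not cover variation between animals, and the tests compare these pools only. Tamoxifen treatment is not given in the sources used here.

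The 10 genes were put together with their levels and changes in these same 4 libraries known. Their values in the comparison of the groups are therefore a description and carry no test. Tests are given for other epithelial genes, from lists of which earlier results of these data already showed some members.

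Epithelial cells form sheets held together by cadherin junctions, rest on a keratin skeleton and have distinct apical and basal surfaces. Epcam encodes a surface adhesion protein and Cdh1 encodes E-cadherin, the calcium-dependent adhesion protein of epithelial junctions. Krt8 and Krt7 are type II keratins and Krt18 is a type I keratin, and a filament needs a type II and a type I chain. In the lung these genes are known from alveolar and airway epithelium, while endothelial cells use VE-cadherin (Cdh5) and the filament protein vimentin (Vim). Cd24a encodes a small, heavily glycosylated surface protein that is known from epithelium but also from leukocytes and red cell precursors.

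Total counts per library ran from 6483514 to 16037416, and a single count was worth 0.0606 to 0.153 CPM (counts scaled to library size by the TMM method). Jun, the floxed gene, was at 472 and 433 CPM in the Jun-Ctrl pair and at 524 and 475 CPM in Jun-cKO, and the log2 fold change was 0.14 with an SE of 0.12 (Benjamini-Hochberg adjusted p = 0.354 in edgeR's quasi-likelihood fit). Jun RNA did not fall, so the second group is called Jun-cKO-labelled (its libraries, the Jun-cKO-labelled pair), and higher and lower refer to that label throughout. Of 9 lymphatic endothelial markers 8 had counts, and Ccl21a was at 0 in every library. Whether the 0 of Ccl21a reflects its expression or the counting of its reads was not tested. The summed level of the 9 markers was 13159 to 14305 CPM in the Jun-Ctrl pair and 18472 to 19046 CPM in the Jun-cKO-labelled pair. Lyve1 made up 6186 ± 304 and 9450 ± 1145 CPM (SD) of it. The markers did not move together: of the 8 tested, 4 rose and 1 fell, where 19% of all tested genes rose and 22.5% fell. The marker that fell was Flt4, from 1588 ± 126 to 1049 ± 215 CPM (adjusted p = 0.000356 by edgeR). All 10 pan-endothelial markers had counts, from Pecam1 to Egfl7.

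The upstream sequence of 6 of the 10 genes was in the RefSeq promoter table for GRCm38.p6, the assembly that mm10 names. Epcam is shown because it is the defining gene of the set, with the 250 bases before its start at chr17:87635729-87635978 on the plus strand. Capitals mark matches to CACCTG (or CAGGTG on the other strand), the E-box that repressors of the Snail and Zeb families bind in the E-cadherin promoter, and to ACCGGT, a core of sites of the epithelial factor family Grainyhead-like.
Epcam: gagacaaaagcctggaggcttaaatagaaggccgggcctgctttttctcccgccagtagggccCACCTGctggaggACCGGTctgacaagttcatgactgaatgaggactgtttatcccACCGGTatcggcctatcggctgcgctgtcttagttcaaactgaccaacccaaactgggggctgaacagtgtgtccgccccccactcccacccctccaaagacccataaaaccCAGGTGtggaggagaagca

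The same E-box stood once in the 250 bases before the RefSeq start of 4 other genes, and 30 bases around it are shown for 3 of them to compare their surroundings. It began 214 bases before the start of Krt18 (chr15:102027990-102028019, plus strand), 44 before Krt7 (chr15:101412347-101412376, plus strand) and 140 before Elf3 (chr1:135258595-135258624, minus strand). The match of Krt7 lies downstream of the gene start that GENCODE M21 annotates, which is further out than the RefSeq start.
Krt18: aggggctaacacCACCTGctatcctttgtg
Krt7: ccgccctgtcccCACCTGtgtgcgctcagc
Elf3: gaatatgcaaatCACCTGggacagggagcc

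The E-box was thus found in 5 of 6 windows, and in 17.2% of the 32851 windows of this length in the table. ACCGGT was found in 1 of 6, against 1.86% of all windows. The AP-1 site TGANTCA, which Jun-containing dimers bind, was found in 0 of 6 (6.75% of all windows), and the ETS site CGGAAG in 0 of 6 (13.6%). These motifs were chosen after the sequences had been seen, and a match is a description of the letters only.

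The adhesion genes Epcam and Cdh1 were low in the Jun-Ctrl pair and lower still in the Jun-cKO-labelled pair. Epcam had 48 and 16 counts in the Jun-Ctrl pair, which is 2.91 and 2.45 CPM, and 2 and 0 counts in the Jun-cKO-labelled pair, which is 0.131 and 0 CPM. Summed over the group, Jun-Ctrl stood 30.6-fold above the Jun-cKO-labelled pair, and the exact 95% interval from counting alone ran from 8.14 to 258. Cdh1 was at 7.34 and 6.12 CPM in the Jun-Ctrl pair and at 1.51 and 0.738 CPM in the Jun-cKO-labelled pair. Its log2 difference was -2.45 (SE 0.34), and -3.20 with Jun-cKO-labelled replicate 1 left out. For both genes each Jun-Ctrl library lay above each Jun-cKO-labelled library. Epcam has 10 merged exons on the plus strand of chromosome 17 (87635979 to 87651129, GRCm38), and Cdh1 has 16 on the plus strand of chromosome 8 (106603351 to 106670246).

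The 3 keratin genes lie on chromosome 15, Krt8 (101996698 to 102004482, minus strand) next to Krt18 (102028180 to 102032027, plus strand) and Krt7 at lower coordinates (101411043 to 101430313, plus strand). Krt7 was at 29.4 and 33.5 CPM in the Jun-Ctrl pair and at 1.90 and 1.62 CPM in the Jun-cKO-labelled pair. Krt18 was at 17.2 and 14.8 CPM against 3.67 and 2.21 CPM. Krt8 was at 5.28 and 11.8 CPM against 1.31 and 0.738 CPM. In all 3 genes the groups did not overlap, and the log2 differences were -4.10 (SE 0.23) for Krt7, -2.80 (SE 0.37) for Krt8 and -2.36 (SE 0.24) for Krt18.

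Krt8 was the member whose 2 Jun-Ctrl libraries differed most. Replicate 2 stood 2.23-fold above replicate 1, with an exact 95% counting interval of 1.62 to 3.07, while Krt18, its usual filament partner, stood at 0.862-fold (0.677 to 1.09). Without Jun-Ctrl replicate 1 the log2 difference of Krt8 was -3.40. The ratio of type II to type I chains, taken as Krt8 plus Krt7 over Krt18 in CPM per kilobase of the deposited gene length, was 1.75 and 2.61 in the Jun-Ctrl pair and 0.734 and 0.906 in the Jun-cKO-labelled pair. With Krt19, a further type I keratin that is not among the 10, added to Krt18, it was 0.800 and 0.944 against 0.531 and 0.562. The ratio was higher in the Jun-Ctrl pair either way, but which type of chain had the higher level depended on whether Krt19 was counted. The Jun-cKO-labelled ratios rest on 105 and 31 counts of the 3 member keratins. RefSeq lists a pseudogene, Krt8-ps, on chromosome 7, and reads of Krt8 that match it are uncertain.

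Genes of the apical surface and the cortical skeleton had few counts in the Jun-cKO-labelled pair. Mal2, a membrane protein of transport to the apical surface, was at 23.7 and 19.1 CPM in the Jun-Ctrl pair and at 0.459 and 0.295 CPM in the Jun-cKO-labelled pair, from 7 and 2 counts. Myh14, the heavy chain of non-muscle myosin IIC, was at 26.2 and 33.7 CPM against 0.524 and 0.738 CPM, from 8 and 5 counts. Summed over the group, Jun-Ctrl was 54.8-fold higher for Mal2 (exact 95% counting interval 28.6 to 120) and 48.0-fold higher for Myh14 (27.9 to 90.6), ranges that the interval of Epcam spans. Of all tested genes, 0.506% had a lower log2 fold change than Mal2 and 0.521% than Myh14. Both genes were chosen on this comparison, so these ranks are a description only. Mal2 has 4 exons on the plus strand of chromosome 15 (54571192 to 54602847), and Myh14 has 47 merged exons on the minus strand of chromosome 7 (44605803 to 44670843).

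Elf3 and St14 were close to the limit of detection. Elf3, an epithelial transcription factor of the ETS family, had 19 and 4 counts in the Jun-Ctrl pair (1.15 and 0.612 CPM) and 2 and 0 counts in the Jun-cKO-labelled pair (0.131 and 0 CPM). It was the single member under the filter on low counts. Its pooled ratio of Jun-Ctrl over Jun-cKO-labelled was 11, with an exact 95% counting interval of 2.72 to 96.3, and with Jun-Ctrl replicate 1 left out the fitted log2 difference moved from -3.27 to -2.62. St14 encodes matriptase, a membrane-bound serine protease of epithelia. It was at 2.12 and 2.14 CPM in the Jun-Ctrl pair and at 0.852 and 1.92 CPM in the Jun-cKO-labelled pair, so replicate 2 of the latter lay just under Jun-Ctrl. The log2 difference of St14 was -0.79 (95% interval -1.67 to 0.08), and -0.15 with Jun-cKO-labelled replicate 1 left out. Without that library Epcam and Elf3 had 0 counts left in their group. Elf3 lies on the minus strand of chromosome 1 (135253575 to 135258568) and St14 on the minus strand of chromosome 9 (31089402 to 31131853).

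Cd24a differed in the opposite direction from the other 9 genes. It was at 448 and 437 CPM in the Jun-Ctrl pair and at 816 and 759 CPM in the Jun-cKO-labelled pair, the mean being 442 ± 7.89 (SD) against 788 ± 40.7. Both Jun-cKO-labelled libraries were above both Jun-Ctrl libraries, by 1.78-fold in the fit (log2 difference 0.83, SE 0.12). Cd24a held 79.5% and 77.9% of all counts of the 10 genes in the Jun-Ctrl pair and 98.7% and 98.9% in the Jun-cKO-labelled pair. The other 9 genes together had 115 and 124 CPM in the Jun-Ctrl pair and 10.5 and 8.27 CPM in the Jun-cKO-labelled pair. Cd24a thus goes against the label of an epithelial gene set in these libraries: it was highest in the pair where the sum of the other members was lowest. Cd24a lies on the plus strand of chromosome 10 (43578284 to 43584265), and its longest annotated transcript has 43.0% GC, the lowest of the members. With a correction for transcript GC content the log2 difference of Cd24a was 0.67.

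**Figure D1:**
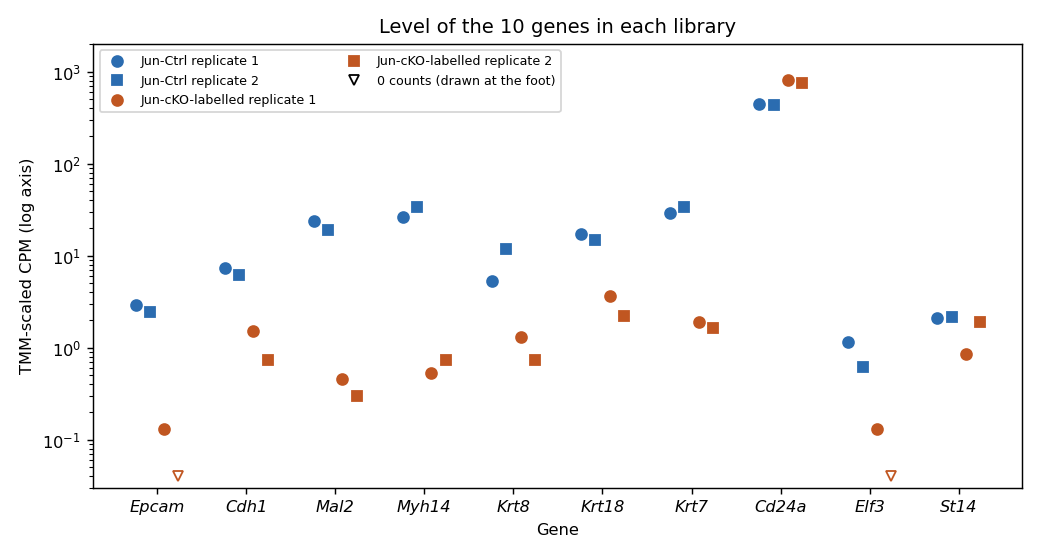
Level of each of the 10 genes in each library, in TMM-scaled CPM on a log axis, with blue for Jun-Ctrl, orange for Jun-cKO-labelled, circles for replicate 1, squares for replicate 2 and open triangles for libraries with 0 counts. Cd24a lies between 437 and 816 CPM and is higher in the Jun-cKO-labelled pair, and the other genes are at most 33.7 CPM and lower there.

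In counts of members, 9 genes had both Jun-cKO-labelled libraries below both Jun-Ctrl libraries, and 1, Cd24a, had both above. Over the 12656 tested genes 35.9% were lower and 35.4% higher by the same criterion. The edgeR test called 41.5% of all tested genes, 22.5% lower and 19% higher. As the members were chosen on this comparison, no calls are given for them. Nothing is read from their counts of 9 lower and 1 higher. Over all 10 members the median log2 difference was -3.04, beside 0.01 over all tested genes, and it was -3.81 with Jun-cKO-labelled replicate 1 left out. In bulk RNA, fewer cells of a type and less RNA per cell cannot be told apart.

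**Figure D2:**
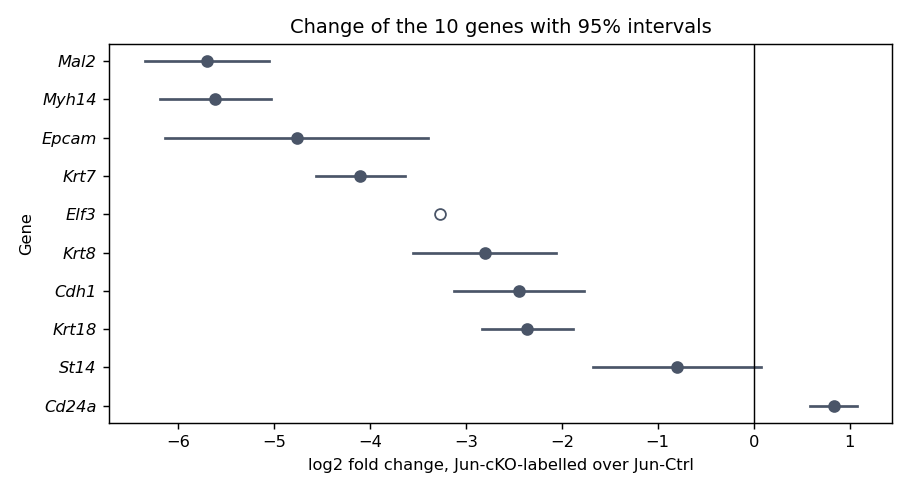
Log2 fold change of each gene, Jun-cKO-labelled over Jun-Ctrl, with its 95% interval from the edgeR fit as a line. Mal2 at -5.70 and Cd24a at 0.83 are the extremes of these fitted values, the interval of St14 crosses 0, and the open circle is Elf3, a fitted value with no interval because the gene was under the filter on low counts.

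Compared per kilobase, Cd24a was far above the rest in the Jun-Ctrl pair at 244 ± 4.34 CPM per kilobase (SD, n = 2). Krt7 followed at 19.8 ± 1.82, Krt18 at 11.5 ± 1.20 and Mal2 at 7.71 ± 1.15, and the libraries of these neighbours did not overlap. Krt8 at 4.72 ± 2.55 and Myh14 at 4.55 ± 0.801 overlapped, as did Cdh1 at 1.52 ± 0.195 and Epcam at 1.30 ± 0.159, and St14 at 0.531 ± 0.00341 and Elf3 at 0.441 ± 0.191. In the Jun-cKO-labelled pair the order changed. Cd24a was at 434 ± 22.4 CPM per kilobase and Krt18, at 2.10 ± 0.735, stood above Krt7 at 1.11 ± 0.123. St14, at 0.345 ± 0.188, had the fifth highest mean in place of the ninth, but its libraries overlapped those of Krt8 at 0.568 ± 0.224 and of Cdh1 at 0.254 ± 0.123. Mal2, at 0.136 ± 0.0416, and Myh14, at 0.0959 ± 0.0230, overlapped each other and lay below Cdh1. This scale assumes even coverage along a transcript, which was not tested in these amplified libraries.

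Several members have an endothelial counterpart of the same family or function, which was compared on the same scale. Cdh5, the cadherin of endothelial junctions, was at 125 ± 2.7 CPM per kilobase in the Jun-Ctrl pair and 152 ± 2.78 in the Jun-cKO-labelled pair, against 1.52 and 0.254 for Cdh1. Myh9, the heavy chain of non-muscle myosin IIA, was at 31.1 ± 0.927 and 26.3 ± 2.76, and Myh10, that of IIB, at 9.28 ± 0.275 and 9.68 ± 0.0311, against 4.55 and 0.0959 for Myh14. Vim, the filament protein of endothelium and mesenchyme, was at 3973 ± 346 and 3990 ± 449, far above the 3 keratins. Prox1, the transcription factor of lymphatic identity, was at 10.02 ± 0.736 and 7.99 ± 0.396. Krt7 and Krt18, at 19.8 and 11.5, thus stood above Prox1 in the Jun-Ctrl pair, and every member other than Cd24a stood below it in the Jun-cKO-labelled pair. Cd24a, at 244 and 434 CPM per kilobase, was above Pecam1 (CD31) at 167 ± 7.08 and 194 ± 0.321, and under the lymphatic marker Lyve1 at 2373 ± 117 and 3625 ± 439.

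The genes related to the members by family or partnership were called about as often as tested genes in general. Of 20, 16 were tested, 3 rose and 3 fell, which is 37.5% called beside 41.5% of all tested genes, and the median log2 fold change was 0.04. Ets1, an endothelial ETS factor, rose from 290 ± 25.1 to 433 ± 21.9 CPM (adjusted p = 9.95e-05 by edgeR), and Elf1, an ETS factor closer to Elf3, fell from 37.0 ± 0.690 to 25.2 ± 2.81 CPM (adjusted p = 0.00196). Selp, encoding P-selectin, which binds CD24 protein, fell from 5.73 ± 0.308 to 2.13 ± 0.508 CPM (adjusted p = 0.000328). Ctnnb1, the beta-catenin that links cadherins to actin, rose from 1871 ± 174 to 2669 ± 408 CPM (adjusted p = 0.00216), a call that ended with Jun-Ctrl replicate 2 left out (adjusted p = 0.102, and from 1.51e-05 to 0.102 across its alternatives). The other called genes were Elf2, which rose, and Mal, a relative of Mal2, which fell. Elf2 lost its call with Jun-Ctrl replicate 2 left out (adjusted p = 0.115), and Mal with Jun-cKO-labelled replicate 1 left out (log2 fold change -0.41 in place of -1.12, adjusted p = 0.349) and with Jun-Ctrl replicate 1 left out (adjusted p = 0.0955). Mal also lost it in DESeq2 (adjusted p = 0.0839).

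Of 25 listed epithelial junction and adhesion genes outside the 10, 17 were tested, of which 11 fell and 1 rose, with a median log2 fold change of -2.03. The filter on low counts favours genes that are high in a group, and 6 of the 17 passed it through the Jun-Ctrl pair alone. Over the 23 with any count, fitted without the filter, 14 fell and 1 rose, where 18.5% of all genes with a count fell and 14.8% rose. Cldn18, a tight junction protein of alveolar type 1 cells, fell from 37.8 ± 3.02 to 0.443 ± 0.208 CPM (adjusted p = 1.44e-23 by edgeR). Muc1, a membrane mucin, fell from 14.1 ± 1.68 to 1.06 ± 0.451 CPM (adjusted p = 4.3e-14), and Perp, a desmosome-associated membrane protein, from 39.3 ± 0.997 to 9.32 ± 1.28 CPM (adjusted p = 5.94e-14). Jup, plakoglobin, which endothelial junctions also contain, fell from 199 ± 2.60 to 74.0 ± 6.89 CPM (adjusted p = 6.81e-14). Without Jun-cKO-labelled replicate 1 the log2 fold change of Cldn18 was -6.93 in place of -6.21, and that of Muc1 -4.21 in place of -3.57. The member that rose, Dsg2, encodes a desmosomal cadherin and had 21 and 3 counts in the Jun-Ctrl pair and 34 and 15 in the Jun-cKO-labelled pair (adjusted p = 0.0351). Its call ended when any 1 library was left out (adjusted p from 0.0546 with Jun-Ctrl replicate 1 left out, at a log2 fold change of 2.23 in place of 1.13, to 0.289 with Jun-Ctrl replicate 2 left out), in DESeq2 (0.199) and with the correction for GC content (0.0526).

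Among 11 other keratins 3 were tested and all 3 fell, where 22.5% of all tested genes fell. Over the 8 with any count, fitted without the filter, 5 fell and 0 rose, where 18.5% of all genes with a count fell and 14.8% rose. Krt19, a type I keratin of simple epithelia and mesothelium, fell from 22.8 ± 4.07 to 1.35 ± 0.0335 CPM (adjusted p = 9.2e-18 by edgeR). Krt23 fell from 3.26 ± 0.281 to 0.491 ± 0.695 CPM (adjusted p = 0.000113) and Krt17 from 5.54 ± 2.34 to 2.42 ± 1.12 CPM (adjusted p = 0.0157). Krt23 lost its call in DESeq2 (adjusted p = 0.271) and with Jun-Ctrl replicate 1 left out (0.0526), and had 0 counts in Jun-cKO-labelled replicate 2. Krt17 lost it in DESeq2 (0.0807), with the GC correction (0.2), with Jun-Ctrl replicate 2 left out (0.284) and with Jun-cKO-labelled replicate 2 left out (0.102), and its log2 fold change was -1.64 in place of -0.96 with Jun-cKO-labelled replicate 1 left out. Krt5, a basal cell keratin, had 1 count in all 4 libraries together, and Krt4, Krt6a and Krt13 of stratified epithelia had 0.

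Of 18 transcription and splicing regulators of epithelial identity 10 were tested, of which 7 fell and 1 rose, where 22.5% of all tested genes fell and 19% rose. The median log2 fold change was -1.96. Of the 10, 5 passed the filter through the Jun-Ctrl pair alone (Grhl1, Elf5, Esrp1, Klf5 and Foxa2) and Ovol1 through the Jun-cKO-labelled pair alone, so the tally is partly set by the filter. Over all 18, fitted without it, 9 fell and 1 rose, with a median of -1.67, where 18.5% of all genes with a count fell and 14.8% rose. Foxa2, a forkhead factor of lung epithelium, was at 5.15 and 6.27 CPM in the Jun-Ctrl pair and at 0.0655 and 0.591 CPM in the Jun-cKO-labelled pair (adjusted p = 5.26e-10 by edgeR). Klf5 fell from 4.80 ± 1.22 to 0.205 ± 0.0809 CPM (adjusted p = 3.27e-09). Esrp1, which sets epithelial splicing patterns, fell from 3.41 ± 0.495 to 0.0983 ± 0.139 CPM (adjusted p = 3.1e-08). Nkx2-1, the lung lineage factor, fell from 7.11 ± 0.110 to 1.16 ± 0.590 CPM (adjusted p = 5.25e-08). The log2 fold change of Foxa2 was -4.53, against -3.21 with Jun-cKO-labelled replicate 1 left out and -6.20 without replicate 2, and that of Nkx2-1 was -2.45, against -3.24 with Jun-cKO-labelled replicate 1 left out. Esrp1 had 0 counts in Jun-cKO-labelled replicate 2. Ovol1, an epithelial zinc finger factor, rose from 9 and 2 counts to 25 and 13 (adjusted p = 0.00407), a call that ended in DESeq2 (0.0765) and with Jun-Ctrl replicate 1 or 2 left out (0.0725 or 0.0716), with a log2 fold change of 2.45 in place of 1.86 without replicate 1.

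Of 13 genes of matriptase substrates, inhibitors and related proteases, 10 were tested, 8 fell and 0 rose, where 22.5% of all tested genes fell and 19% rose. The median log2 fold change was -2.0 beside -0.79 for St14 (that difference was not tested). Of the 10, 4 passed the filter through the Jun-Ctrl pair alone. Over all 13, fitted without it, 8 fell and 0 rose, where 18.5% of all genes with a count fell and 14.8% rose. Scnn1g, a subunit of the epithelial sodium channel, fell from 11.2 ± 0.273 to 0.541 ± 0.347 CPM (adjusted p = 5.2e-14 by edgeR), and the subunit Scnn1a from 8.85 ± 0.251 to 0.598 ± 0.637 CPM (adjusted p = 4.4e-11). Prss8, prostasin, a protease that acts with matriptase, fell from 7.84 ± 0.0573 to 0.705 ± 0.256 CPM (adjusted p = 4.4e-11). Spint1, an inhibitor of matriptase, fell from 4.32 ± 0.489 to 0.656 ± 0.0921 CPM (adjusted p = 6.95e-07). Without Jun-cKO-labelled replicate 1 the log2 fold change of Scnn1g was -5.19 in place of -4.14 and that of Scnn1a -5.78 in place of -3.53.

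Genes of apical trafficking, the process Mal2 serves, were called about as often as tested genes in general. Of 14 listed genes 9 were tested, 3 fell and 1 rose, which is 44.4% called beside 41.5% of all tested genes. The median log2 fold change was -0.30. Of the 9, Rab25 passed the filter on low counts through the Jun-Ctrl pair alone, so its fall is partly set by the filter. Over the 12 with any count, fitted without the filter, 4 fell and 1 rose, where 18.5% of all genes with a count fell and 14.8% rose. Rab11fip1, an effector of recycling endosomes, fell from 14.6 ± 0.100 to 1.27 ± 0.335 CPM (adjusted p = 2.48e-14 by edgeR). Myo5c, a myosin of exocrine epithelia, fell from 5.48 ± 0.0352 to 0.779 ± 0.360 CPM (adjusted p = 3.82e-08). Rab25, an epithelial small GTPase, fell from 1.69 ± 0.441 to 0.401 ± 0.359 CPM (adjusted p = 0.00472, and 0.1 in DESeq2), with a log2 fold change of -3.49 in place of -1.84 with Jun-cKO-labelled replicate 1 left out. Vil1, which encodes villin, rose from 1.01 ± 0.308 to 2.85 ± 0.142 CPM (adjusted p = 0.00215), a call that ended in DESeq2 (0.0561) and with Jun-Ctrl replicate 1 left out (0.153). The number called in the list was 2 with Jun-Ctrl replicate 1 left out.

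Known repressors of Cdh1, of the Snail, Zeb, Twist and E-protein families, gave a call in each direction. Of 8, 6 were tested, 1 rose and 1 fell, which is 33.3% called beside 41.5% of all tested genes. The median log2 fold change was 0.02. Of the 6, Snai2 passed the filter on low counts through the Jun-Ctrl pair alone, so its fall is partly set by the filter. Over all 8, fitted without the filter, 1 rose and 1 fell, where 14.8% of all genes with a count rose and 18.5% fell. Zeb1 rose from 107 ± 4.02 to 156 ± 8.05 CPM (adjusted p = 0.000133 by edgeR), with an adjusted p of at most 0.0272 in every alternative run. Snai2 fell from 1.28 ± 0.509 to 0.377 ± 0.116 CPM (adjusted p = 0.0121), a call that ended in DESeq2 (0.184) and with Jun-cKO-labelled replicate 1 or 2 left out (0.0809 or 0.0537), and Snai2 was under the filter on low counts with Jun-Ctrl replicate 1 left out.

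**Figure D3:**
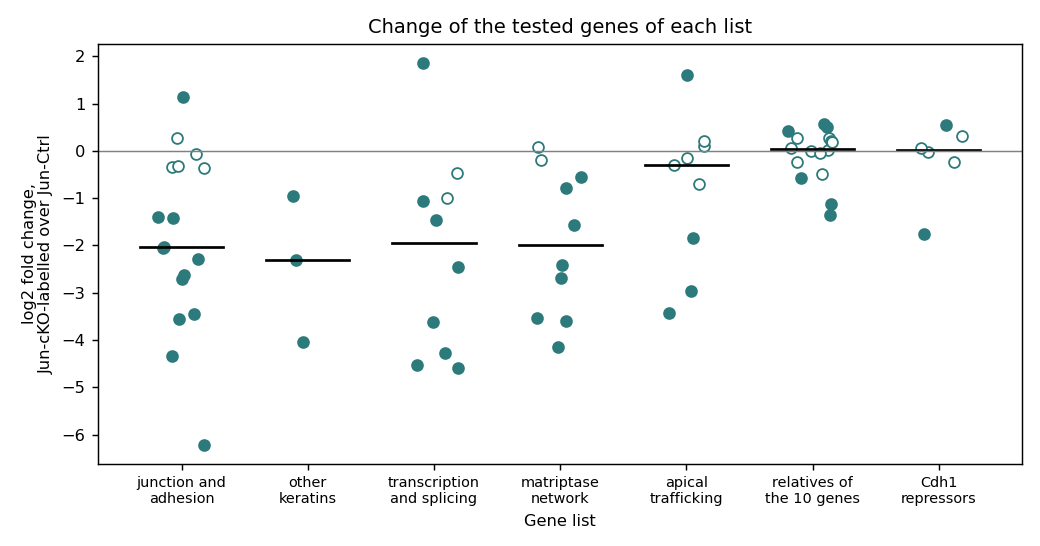
Log2 fold change of every tested gene in 7 lists, Jun-cKO-labelled over Jun-Ctrl, with filled points for genes called at an adjusted p under 0.05, open points for the others and a bar at each list's median. The medians of the junction, keratin, regulator and matriptase lists lie at or below -1.96, and those of the relatives and the Cdh1 repressors at 0.04 and 0.02.

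Markers of several other cell types moved with these results. All 8 alveolar type 1 markers had counts, and their summed level was 444 to 467 CPM in the Jun-Ctrl pair and 156 to 165 CPM in the Jun-cKO-labelled pair. The 10 alveolar type 2 markers summed to 1882 to 1921 CPM against 158 to 165 CPM, and all 10 fell by the edgeR test, where 22.5% of all tested genes fell. Airway markers were examined next. Of 5 club and secretory markers 4 had counts and summed to 63.3 to 67.8 CPM against 39.3 to 40.6 CPM, with Bpifa1 at 0. These 4 did not move together. The edgeR test called 2 of them lower, calls not followed through the alternatives. Scgb1a1, most of the Jun-Ctrl sum, fell from a mean of 39.8 to 14.6 CPM, and Cyp2f2 from 4.19 to 1.05 CPM. Scgb3a2, at 16.7 and 17.6 CPM, and Scgb3a1, at 4.85 and 6.72 CPM, were not called and had the higher mean in the Jun-cKO-labelled pair. The 7 ciliated markers summed to 28.0 to 30.1 CPM against 26.3 to 31.0 CPM, and the groups of this sum overlapped. Tppp3 made up most of it, at 22.9 and 25.4 CPM in the Jun-Ctrl pair and 25.9 and 20.2 CPM in the Jun-cKO-labelled pair. The overlap thus says little about the other ciliated markers, which had few counts. Of 5 tested, 1 rose and 0 fell. Rsph1 rose from 5 and 2 counts to 20 and 17 (adjusted p = 0.000742 by edgeR), a call not followed through the alternatives. Of 4 basal markers 3 had counts and summed to 2.18 to 2.91 CPM against 2.81 to 4.98 CPM, and their groups overlapped. Trp63, the defining basal factor, was at 0 in every library. Ngfr, the single basal marker tested, had 31 and 19 counts in the Jun-Ctrl pair and 74 and 18 in the Jun-cKO-labelled pair (log2 fold change 0.84, adjusted p = 0.0436 by edgeR). Its groups overlapped, and its call ended in DESeq2 (0.323), with scaling to library totals (0.0625), with Jun-Ctrl replicate 1 or 2 left out (0.530 or 0.0635) and with Jun-cKO-labelled replicate 1 left out (0.741, at a log2 fold change of 0.25). Of 5 neuroendocrine markers 3 had counts and summed to 0.153 to 0.667 CPM against 0 to 0.0655 CPM, with Syp at 0 in every library.

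Cell types outside the epithelium that are known for some of the 10 genes were examined in the same way. The 6 mesothelial markers in the table summed to 241 to 269 CPM in the Jun-Ctrl pair and 317 to 335 CPM in the Jun-cKO-labelled pair, of which Gpm6a made up 219 ± 23.3 and 322 ± 13.4 CPM, while Msln fell from 31.1 ± 4.51 to 1.11 ± 0.0938 CPM (adjusted p = 6.1e-21 by edgeR). Of 11 leukocyte markers 9 had counts, and they summed to 453 to 462 CPM against 180 to 203 CPM, in the direction opposite to Cd24a. S100a9, at 216 ± 12.1 and 78.1 ± 11.7 CPM, and S100a8, at 99.5 ± 7.03 and 56.4 ± 6.45 CPM, made up most of these sums. The edgeR test called all 7 tested leukocyte markers lower, where 22.5% of all tested genes fell. The B cell marker Cd79a had 6 and 1 counts in the Jun-Ctrl pair and 0 in the Jun-cKO-labelled pair, too few to read a change from. Ms4a1 was at 0 in every library. Of 8 erythroid markers 4 had counts and summed to at most 1.68 CPM in any library, and the 4 globin genes Hba-a1, Hba-a2, Hbb-bs and Hbb-bt were at 0. Whether the 0 of the globin genes reflects their expression or the counting of their reads was not tested. All 8 mesenchymal markers had counts, and summed to 324 to 328 CPM against 104 to 111 CPM. The edgeR test called 5 of the 8 lower, where 22.5% of all tested genes fell. Not called were Pdgfra, at 3.05 ± 0.450 and 2.56 ± 0.276 CPM, Pdgfrb, at 2.32 ± 0.618 and 2.24 ± 0.450 CPM, and Dcn, at 5.74 ± 0.317 and 3.81 ± 0.170 CPM. The part of the alveolar, leukocyte and mesenchymal markers in the results for the 10 genes was not tested.

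**Figure D4:**
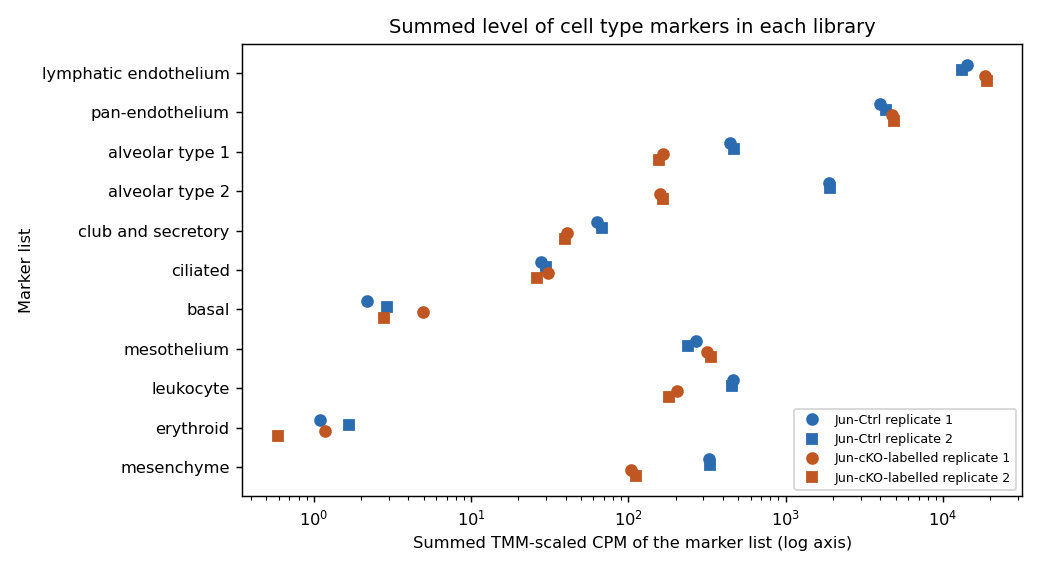
Summed TMM-scaled CPM of each marker list in each library on a log axis, with blue for Jun-Ctrl, orange for Jun-cKO-labelled, circles for replicate 1 and squares for replicate 2. The alveolar type 2 sum falls from 1882 or more to 165 or less. The ciliated sums, made up mostly of Tppp3, overlap. The endothelial sums are higher in the Jun-cKO-labelled pair, but each holds genes called in either direction. The neuroendocrine list, at 0 in 1 library, is not drawn.

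The genes whose profile over the 4 libraries was most like that of Epcam were found by the root mean square distance between log2 CPM values centred on each gene's mean, among tested genes outside the 10 that averaged 50 counts or more. They were Muc1 (distance 0.17), Rab11fip1 (0.18), the growth regulator Dlk1 (0.18), the alveolar type 2 marker Lamp3 (0.18) and the homeobox gene Irx1 (0.21). Those most like Cd24a were Ttpa (0.02), Ogt (0.03), Rev3l (0.03), Cox8a (0.04) and E2f3 (0.04). The log2 CPM values were taken with a prior count of 2, which shrinks the differences of genes with few counts, such as Epcam. The fitted log2 difference of Epcam was -4.76, and those of the genes nearest to it ran from -3.72 to -3.29. The likeness is thus to the shrunken profile of Epcam and not to its fitted difference. The profiles rest on 4 libraries from 2 groups, and that of Epcam on 66 counts in all.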

How the data were processed

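The authors deposited unnormalized counts of reads for each gene and library, next to a length per gene. Per the submitters' processing notes, the build was mm10 and the tools included featureCounts 1.6.4, STAR 2.7.2a and edgeR 3.28.1, with no roles stated. Which annotation and which strand setting were used is not given in the sources used here. By the labels' protocols RNA was amplified before the libraries were made, so intervals from counts cover counting error only. Without strand, reads of Myh14, Krt8, Krt7 and Elf3 cannot be told apart from those of antisense genes that share 60 to 162 exon bases with them.

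Columns were matched to libraries by title, and the library whose title carries the word replicate is called replicate 2. The edgeR 4.0.16 quasi-likelihood fit (R 4.3.3, glmQLFit and glmQLFTest) was run after TMM scaling and filterByExpr on 12656 genes, at a Benjamini-Hochberg adjusted p under 0.05. Standard errors are the log2 fold change divided by the root of F. Elf3 was fitted without the filter at the same scaling. Alternatives were DESeq2 1.42.0, other scalings, other filters, a replicate block, leaving out each library, and an offset from a loess curve (span 0.5) on transcript GC content from GENCODE M21, matched for 96.3% of tested genes. The pipeline was tested on simulated data. Gene coordinates are from GENCODE M21 (GRCm38).

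The 10 genes and all lists were chosen with earlier results of these data known. Named genes are the 10, in each list the called genes with the smallest p, at most 4, and the 5 nearest profiles to Epcam and to Cd24a. Dsg2, Ovol1, Elf2, Mal, Grhl1 and Elf5, and the marker genes given with values, were added after their values were seen. The upstream sequence of 1 further gene with a match to the E-box, and 2 marker genes by name, are not reported here.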

Additional observations from a re-analysis of the deposited data

How the results depend on the processing

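The count of 9 of the 10 genes lower and 1 higher in the Jun-cKO-labelled libraries, with groups that do not overlap, was found in all 11 alternatives run, but leaving out a library cannot create overlap and a change of test or filter barely touches the order of the libraries, so this is no sign of stability. The median log2 difference of the 10 genes, -3.04, was -2.73 with the GC correction and ran from -3.81 to -2.67 with 1 library left out. The total of 5251 called genes ran from 2992 to 4794 with 1 library left out, with 2992 when Jun-Ctrl replicate 1 and 3425 when Jun-Ctrl replicate 2 was the one omitted, and stood at 3591 in DESeq2. DESeq2 called 1 of the 3 other keratins of the main fit, 2 of its 9 apical trafficking genes and 1 of its 6 Cdh1 repressors. With at least 50 counts in 2 libraries, where fewer genes are tested, the calls were 5 junction genes, 1 other keratin, 1 regulator, 4 matriptase network genes, 1 apical trafficking gene and 1 Cdh1 repressor. The total called under that filter was 4029. The numbers tested per list under it are not given here, so these counts are not set against a share. Without a filter 5 other keratins were called. With 1 library left out the calls ran from 2 to 6 for apical trafficking and from 1 to 2 for Cdh1 repressors. Of 50 genes followed through these alternatives (the 10, the named list genes, the nearest profiles, Gpm6a, Msln and Ngfr), 34 had a value in all 11 and the others were under a filter in some, and 0 of the 532 values reversed direction. With the replicate mark as a block, 5426 genes were called, and the median of the 10 genes was -3.00. The marks share no stated batch, and deviations of same-marked libraries from their group means correlated at 0.07 over 12656 genes, so they are not taken to pair the libraries. Depth limits Epcam, Elf3 and St14 most, with 66, 25 and 75 counts in all 4 libraries. The cause of the shifts other than those from fewer or more tested genes was not tested.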
